A study of Mus musculus with 8 samples.

Results

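Genes of hepatocyte polarity, cell junctions and the bile canaliculus were examined in RNA sequencing libraries made from the livers of 8 CD1 mouse pups, each from the entire organ. The set is a list of 38 gene symbols, chosen by role and matched through the GENCODE M21 annotation of GRCm38, among 48440 genes in the deposited count table. All 38 had enough counts to be tested, as did 18274 genes in the whole table. The knockout group was 4 pups with a germline deletion of Myo5b, which removes the gene from every tissue and not from the liver alone. The control group was 4 littermates that were wildtype or heterozygous for the deletion, and the labels do not say which pup was which. Pups of both groups were taken at ages between 3 and 8 days, and the age and litter of each pup are not given.

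Hepatocytes are polarised in an unusual way. Their apical surface is a narrow groove, the bile canaliculus, that runs between neighbouring cells and is closed on either side by tight junctions, with adherens junctions beside them. PAR proteins and the kinase LKB1 place this surface. Linkers of the ezrin, radixin and moesin family tie its microvilli to actin, and vesicle traffic through recycling endosomes brings its proteins there. Myosin Vb, the product of Myo5b, is an actin motor of those endosomes. In humans, loss of MYO5B, STX3 or STXBP2 causes microvillus inclusion disease of the gut, and MYO5B variants also occur in children with cholestasis.

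Myo5b had 47.3, 43.1, 47.5 and 59.5 CPM in knockout livers 275 to 278, against 172, 144, 121 and 94.0 CPM in control livers 279 to 282, so its level went with the labels (log2 fold change -1.43, SE 0.18). The counts cover the whole gene, and which exons were deleted is not given. CPM are counts scaled by library size and composition, and values per library below always run from animal 275 to 278 in knockouts and from 279 to 282 in controls. Libraries held 14228268 to 18398039 counts. Control 282 had the fewest counts but the most genes with a count, 29225 against 24225 to 26813 in the other libraries. Of marker lists for the cells of the liver, all 12 erythroid genes were lower in knockout livers, 7 of 8 endothelial genes and 7 of 8 macrophage genes were higher, and fewer passed in the lists for hepatocytes (0 higher and 2 lower of 8), stellate cells (2 and 2 of 8) and cholangiocytes (0 and 1 of 8 tested). Among the hepatocyte markers with the highest levels, Alb fell (log2 fold change -1.08, SE 0.11), while Apoa1 was at 0.06 (SE 0.10) and Apob at 0.07 (SE 0.09). Summed erythroid markers ran from 561 to 1186 CPM in knockout livers and from 2298 to 3270 CPM in controls, the highest knockout being 278. In whole liver, fewer cells of a type and less RNA per cell cannot be told apart.

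Knockout and control livers differed in 15 of the 38 genes, with 8 higher and 7 lower in knockouts at an adjusted p under 0.05 in edgeR's quasi-likelihood test. That is 39.5% of the set, beside 20.7% of all genes tested and 27.6% of tested genes with a mean of at least 5 CPM. The 38 genes were chosen with earlier results of these data known, so this share does not test the set against the background. In a further list of junction and polarity genes, described below, the share was 18.6%. By direction the background was 9.27% higher and 11.4% lower. The set as a whole had no common direction. Its median log2 fold change was -0.07, against 0.01 over all genes tested, with 18 genes above 0 and 20 below. The changes were mostly small, since 4 of the 15 passed 1.5-fold and 2 passed 2-fold, whereas 28.6% of all called genes passed 2-fold. The values of the groups did not overlap for 15 of the 38 genes, 13 of which were among those called, and the background for groups that do not overlap was 23.6%. With mean erythroid marker expression as a covariate, 0 of the 38 genes passed (5 at an unadjusted p under 0.05), as did 0.224% of all genes tested. That covariate correlated with genotype at -0.94 over the 8 libraries, the median SE of the 15 genes was 0.27 with it and 0.09 without it, 14 of the 15 kept their direction, and 3 of the 15 had a fold change at least as large.

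**Figure D1:**
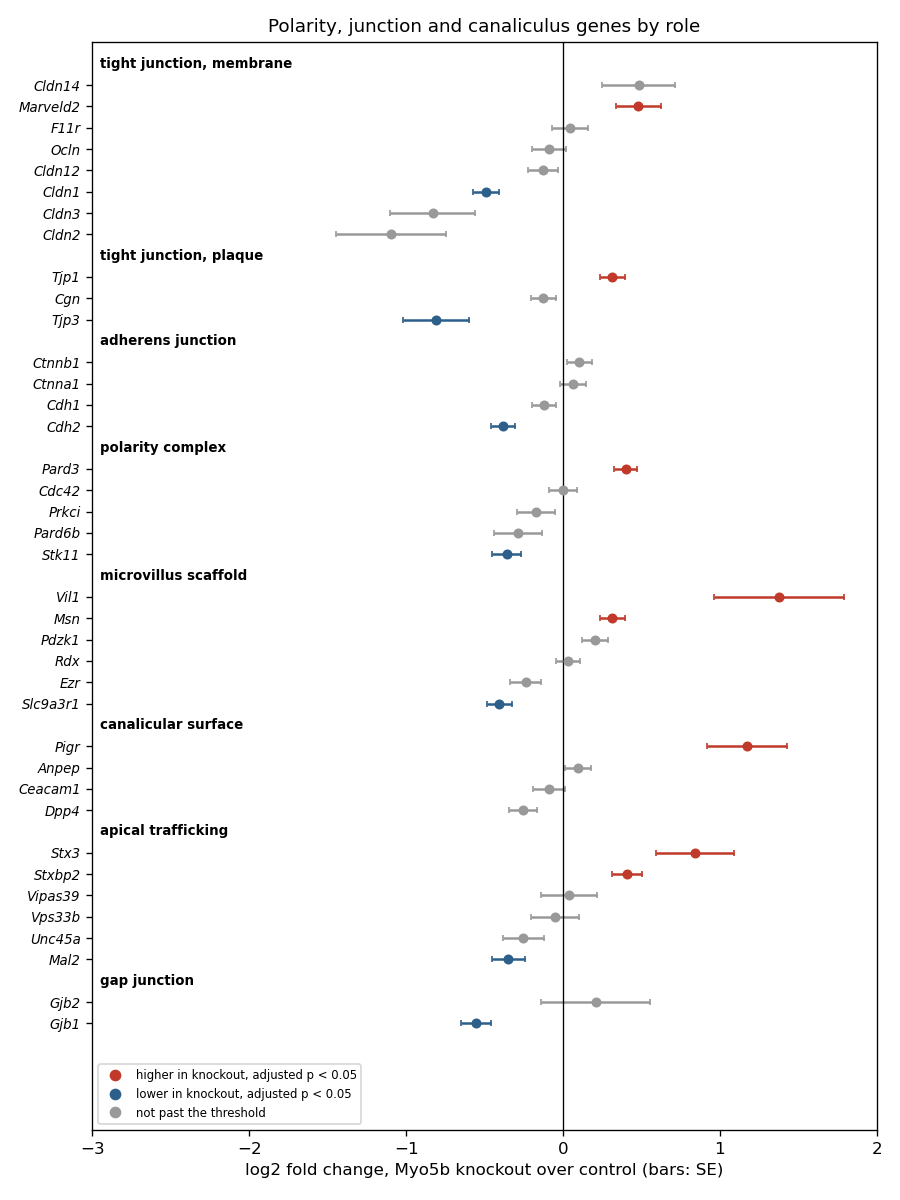
Log2 fold change of each gene in Myo5b knockout over control livers (x axis; points, with SE as bars), grouped by role. Red points are the 8 genes higher and blue points the 7 lower at an adjusted p under 0.05, grey points did not pass, and 5 of the 8 groups hold genes called in both directions.

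The claudins, tetraspan proteins that seal or open the space between cells at the tight junction, gave the largest differences among the membrane proteins of that junction. Cldn1, a barrier-forming claudin (chromosome 16, 26356642 to 26371841), had 145, 146, 155 and 175 CPM in knockout livers, against 232, 217, 215 and 210 CPM in control livers. Every knockout lay below every control, and Cldn1 fell 1.41-fold (log2 fold change -0.49, SE 0.08, adjusted p = 0.000377 in edgeR's test). Cldn2, whose protein forms pores for cations and water (chromosome X, 139800828 to 139811386), had 32.6, 30.9, 44.3 and 85.3 CPM in knockout livers, against 111, 109, 106 and 86.5 CPM in control livers. Cldn3, another barrier claudin (chromosome 5, 134986214 to 134987472), had 48.1, 43.8, 44.5 and 90.4 CPM in knockout livers, against 110, 117, 98.9 and 78.0 CPM in control livers. For both, knockouts 275, 276 and 277 were far below every control, while knockout 278 was just below the lowest control for Cldn2 and within the control range for Cldn3.

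With all 8 libraries, Cldn2 had a log2 fold change of -1.10 (SE 0.35, adjusted p = 0.0768 in edgeR's test) and Cldn3 one of -0.83 (SE 0.27, adjusted p = 0.0771), and neither passed. Without knockout 278, edgeR's test gave -1.52 for Cldn2 (adjusted p = 5.83e-07) and -1.15 for Cldn3 (adjusted p = 3.10e-06). Knockout 278 was the liver that stood out for these same genes, so its omission is not separate support. Both also passed in DESeq2 (-1.09 and -0.83), in limma-voom (-1.30 and -0.95), in edgeR with a dispersion that is not robust to single libraries (-1.10 and -0.83), and without knockout 278 and control 282 together (-1.60 and -1.25). Neither passed in any other alternative. In edgeR's test the adjusted p was 0.145 and 0.166 without a low-count filter, and 0.134 and 0.114 with sex as a covariate. Omitting any other single library also left both short of the threshold. Over all alternatives other than the erythroid covariate, the log2 fold change was negative for both. With that covariate it was 0.46 for Cldn2 and 0.36 for Cldn3. Summed erythroid markers were 1186 CPM in knockout 278, against 561 to 805 CPM in the other knockouts; their part in the claudin values was not tested.

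Gjb2 encodes connexin 26, a gap junction channel subunit of periportal hepatocytes in the mouse, and it stood out in the same liver. It had 102, 111, 114 and 255 CPM in knockout livers, against 155, 135, 110 and 104 CPM in control livers. Knockout 278 was above all 7 other libraries, and the remaining knockouts overlapped the controls. Its log2 fold change was 0.21 (SE 0.35, adjusted p = 0.740), and -0.21 without knockout 278 (adjusted p = 0.265). Relative to the mean of the other knockouts on the log2 CPM scale, knockout 278 was higher by 1.26 for Cldn2, 1.23 for Gjb2 and 0.99 for Cldn3. The largest differences in the other direction were -0.69 for Tjp3, -0.53 for Marveld2 and -0.43 for Pigr, and all others lay within 0.27 of 0. In sex, knockout 278 did not stand apart, being classed as female like knockouts 275 and 276, with the Y-linked gene Ddx3y not above 10 CPM.

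Promoters are shown for the 3 genes with the largest differences between knockout 278 and the other knockouts, a pick by size in a single liver. The promoters are given as the 250 bases before the RefSeq transcription start (GRCm38.p6), with capitals for a TATA box (TATAAA on either strand). They are Cldn2 (chrX:139800558-139800807, plus strand), Cldn3 (chr5:134985964-134986213, plus strand) and Gjb2 (chr14:57104703-57104952, minus strand).
Cldn2: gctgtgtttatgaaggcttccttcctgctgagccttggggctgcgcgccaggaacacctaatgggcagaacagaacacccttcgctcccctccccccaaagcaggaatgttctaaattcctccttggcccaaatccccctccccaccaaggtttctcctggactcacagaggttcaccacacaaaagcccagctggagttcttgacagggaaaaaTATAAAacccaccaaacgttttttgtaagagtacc
Cldn3: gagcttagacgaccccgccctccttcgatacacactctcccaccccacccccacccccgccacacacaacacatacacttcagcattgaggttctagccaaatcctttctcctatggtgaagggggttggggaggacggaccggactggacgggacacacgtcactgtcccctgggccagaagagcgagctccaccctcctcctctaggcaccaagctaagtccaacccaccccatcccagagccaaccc
Gjb2: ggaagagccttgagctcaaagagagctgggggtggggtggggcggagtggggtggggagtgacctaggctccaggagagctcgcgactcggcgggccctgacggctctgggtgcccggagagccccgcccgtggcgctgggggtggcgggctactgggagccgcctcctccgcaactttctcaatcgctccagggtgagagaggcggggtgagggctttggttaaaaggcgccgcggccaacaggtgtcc
The Cldn2 window has a TATA box 30 to 35 bases before the start, and the other windows have none. GC content was 52.0% for Cldn2, 60.8% for Cldn3 and 69.2% for Gjb2, with 4, 9 and 18 CpG dinucleotides. RefSeq promoters, which here run to 50 bases past the start, were matched for 33 of the 38 genes, with 48 promoters in all. TATAAA was in 18.8% of these 48 and in 13.6% of all 32851 promoters. An HNF4A core (CAAAGTC on either strand) was in 2.08% against 4.44%, and a STAT motif (TTCNNNGAA, the same on both strands) in 10.4% against 8.30%. The HNF4A and STAT letters are not in the 3 windows shown, so no motifs overlap there.

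**Figure D2:**
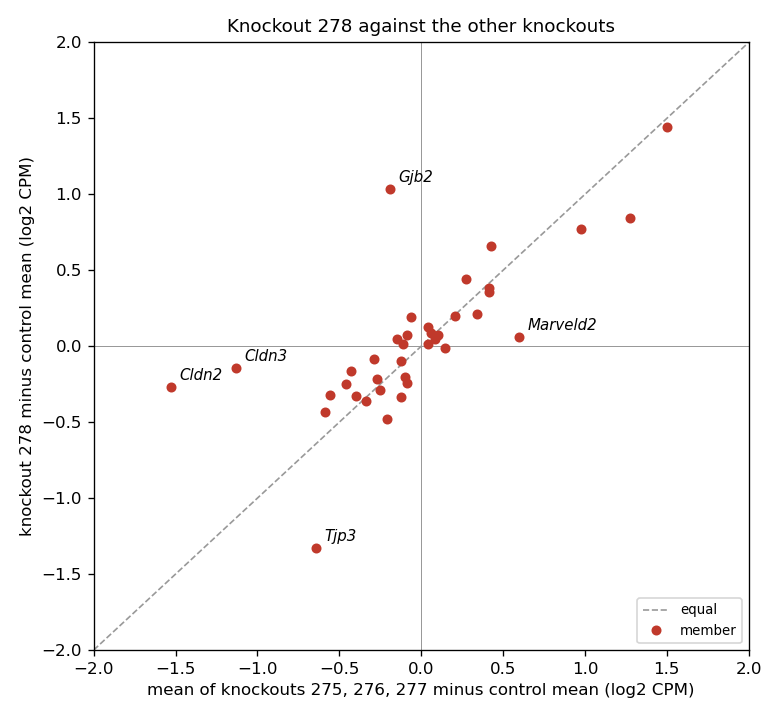
Each point is a gene of the set, with the mean of knockouts 275, 276 and 277 minus the control mean on the x axis and knockout 278 minus the control mean on the y axis, both in log2 CPM. Gjb2, Cldn2 and Cldn3 lie above the dashed line of equality, where knockout 278 exceeded the other knockouts by 0.99 to 1.26, and Tjp3 and Marveld2 lie below it.

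The remaining tight junction membrane genes differed less than Cldn2 and Cldn3, though Marveld2 and Cldn14 changed by about as much as Cldn1 (-0.49). Marveld2, which encodes tricellulin at the corners where 3 cells meet, had 29.0, 25.5, 26.8 and 18.6 CPM in knockout livers, against 19.0, 18.0, 15.6 and 19.1 CPM in control livers. Knockout 278 lay among the controls and the other knockouts above them. Marveld2 rose by 0.48 on the log2 scale (SE 0.14, adjusted p = 0.0241 in edgeR's test). The call was lost without knockout 275 (0.40), 276 (0.46) or 277 (0.44) or control 280 (0.48) or 281 (0.42), and the direction turned with the erythroid covariate (-0.32). Its neighbour on chromosome 13 is Ocln, the gene of occludin (100496507 to 100552718, with Marveld2 at 100595957 to 100616971). Ocln averaged 36.3 ± 4.53 CPM in knockout livers and 38.7 ± 1.84 CPM in control livers (SD, n = 4), a log2 fold change of -0.09 (SE 0.11). F11r, which encodes the junctional adhesion molecule JAM-A, was at 0.04 (SE 0.12) and Cldn12 at -0.13 (SE 0.10). Cldn14 was at 0.48 (SE 0.23, adjusted p = 0.163), with 8.59 to 15.6 CPM in knockouts and 5.05 to 9.87 CPM in controls.

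Per kilobase of exon, which allows levels to be compared between genes, Cldn3 was the most abundant claudin of the set in both groups, at 45.0 CPM per kilobase in knockout livers and 80.1 in controls. Cldn1 followed at 32.1 in knockouts and 45.1 in controls, and Cldn2 at 14.5 in knockouts and 31.0 in controls. Cldn12 stood at 11.2 in knockouts and 12.2 in controls, and Cldn14 was the least abundant at 5.45 in knockouts and 3.90 in controls. Among the knockouts, the Cldn2 range of single livers included the Cldn12 mean, so those neighbours in the order do not differ beyond their spread. Over all 38 genes the highest means in CPM per kilobase were those of Slc9a3r1 (81.6), Rdx (76.7) and Gjb1 (70.6) in knockout livers, and of Slc9a3r1 (108), Gjb1 (104) and Cldn3 (80.1) in control livers. Vil1 had the lowest mean in both, at 1.07 in knockout livers and 0.408 in control livers.

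**Figure D3:**
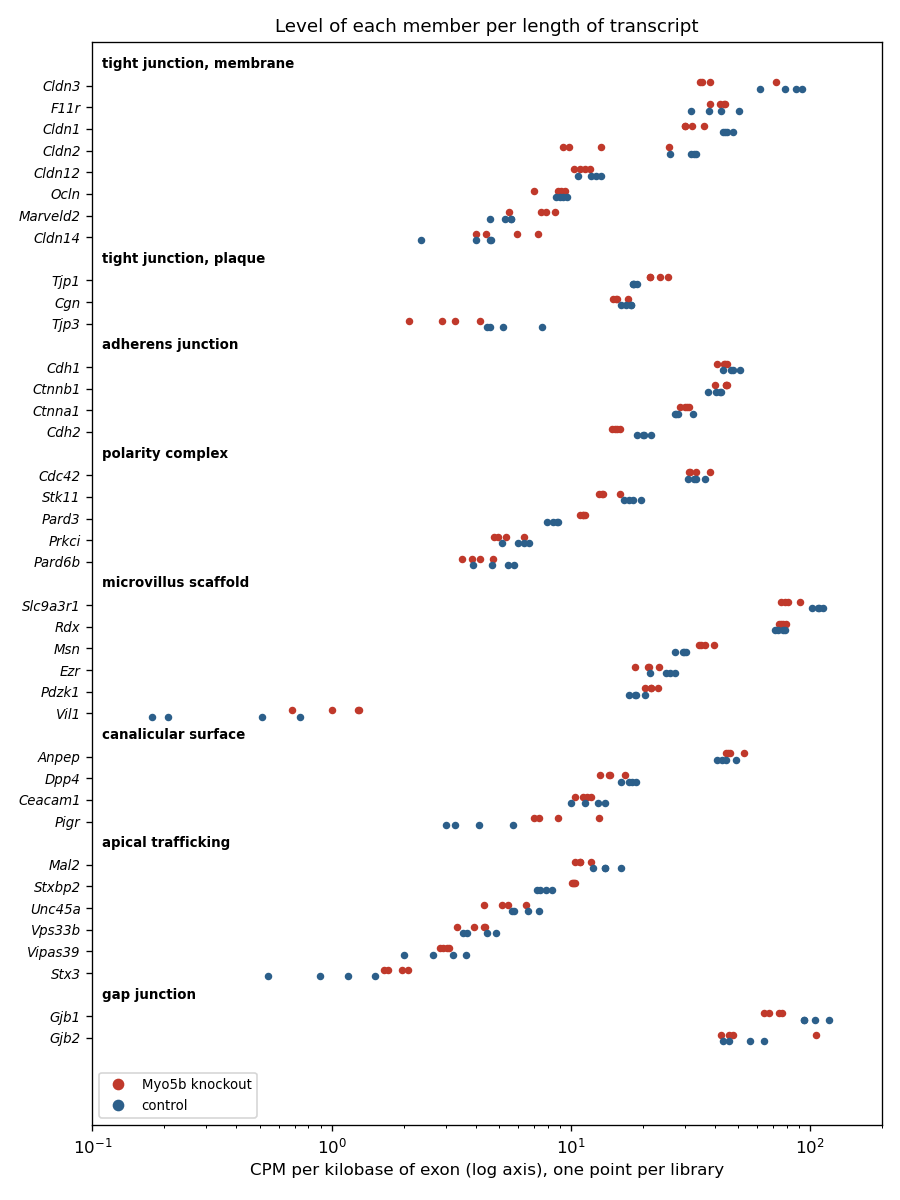
Level of each gene in CPM per kilobase of exon (log x axis), with 1 point per library, knockouts in red above controls in blue, grouped by role. Slc9a3r1 has the highest mean and Vil1 the lowest in both groups, and the Cldn2 and Cldn3 knockout points split into a group of 3 and knockout 278.

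The plaque beneath the tight junction is built on the ZO scaffold proteins, and those changed in opposite directions. Tjp1, the gene of ZO-1, had 184, 167, 199 and 167 CPM in knockout livers, against 142, 143, 148 and 144 CPM in control livers. Every knockout was above every control, a 1.24-fold rise (log2 fold change 0.31, SE 0.08, adjusted p = 0.00918 in edgeR's test). Tjp3, the gene of ZO-3, had 10.8, 12.2, 15.5 and 7.83 CPM in knockout livers, against 19.4, 28.2, 16.6 and 17.1 CPM in control livers. Every knockout was below every control, a 1.75-fold fall (log2 fold change -0.81, SE 0.21, adjusted p = 0.0137). With the erythroid covariate Tjp3 was at -2.30 (adjusted p = 0.0962) and Tjp1 at 0.01 (adjusted p = 0.996). The log2 ratio of Tjp1 to Tjp3 within a library ran from 3.67 to 4.40 in knockout livers and from 2.33 to 3.15 in controls, a ratio chosen after the values were seen. Cgn, the gene of the plaque protein cingulin, averaged 95.5 ± 6.11 CPM in knockout livers and 104 ± 4.67 CPM in control livers (SD, n = 4), at -0.12 (SE 0.08).

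Of the adherens junction genes, only the N-cadherin gene passed the test. Cdh2 had 120, 124, 126 and 129 CPM in knockout livers, against 163, 174, 152 and 161 CPM in control livers. The groups stood apart, and Cdh2 fell 1.30-fold (log2 fold change -0.38, SE 0.08, adjusted p = 0.00157 in edgeR's test). Cdh1, which encodes E-cadherin, the cadherin of periportal hepatocytes and bile ducts, averaged 199 ± 7.80 CPM in knockout livers and 216 ± 14.3 CPM in control livers (SD, n = 4), at -0.12 (SE 0.08, adjusted p = 0.315). Ctnnb1, the gene of beta-catenin, which joins cadherins to actin and also carries Wnt signals, was at 0.10 (SE 0.08), and Ctnna1, the gene of its partner alpha-catenin, at 0.06 (SE 0.08). Of the exon bases of Ctnnb1, 14.6% overlap Ulk4 on the other strand, and whether the counting used strand is not given in the sources used here.

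Of the 5 polarity genes, 1 rose, 1 fell and 3 did not pass. Pard3 encodes PAR3, the scaffold that recruits the PAR6 and atypical PKC complex to the junction (chromosome 8, 127063893 to 127612286). It had 166, 164, 163 and 158 CPM in knockout livers, against 123, 128, 116 and 127 CPM in control livers. Pard3 was among the least variable genes of the set in knockouts, with a coefficient of variation of 2.05%, and it rose 1.32-fold (log2 fold change 0.40, SE 0.07, adjusted p = 0.000907 in edgeR's test). Its partners did not pass, with Pard6b at -0.29 (SE 0.16), Prkci, the gene of an atypical PKC, at -0.17 (SE 0.12), and the small GTPase gene Cdc42 at 0.0024 (SE 0.09). Stk11, which encodes the polarity and energy-sensing kinase LKB1, had 60.04, 62.2, 61.7 and 73.7 CPM in knockout livers, against 83.6, 90.3, 79.9 and 76.4 CPM in control livers. Knockout 278 came nearest the controls without overlap, and Stk11 fell 1.28-fold (log2 fold change -0.36, SE 0.09, adjusted p = 0.00979).

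**Figure D4:**
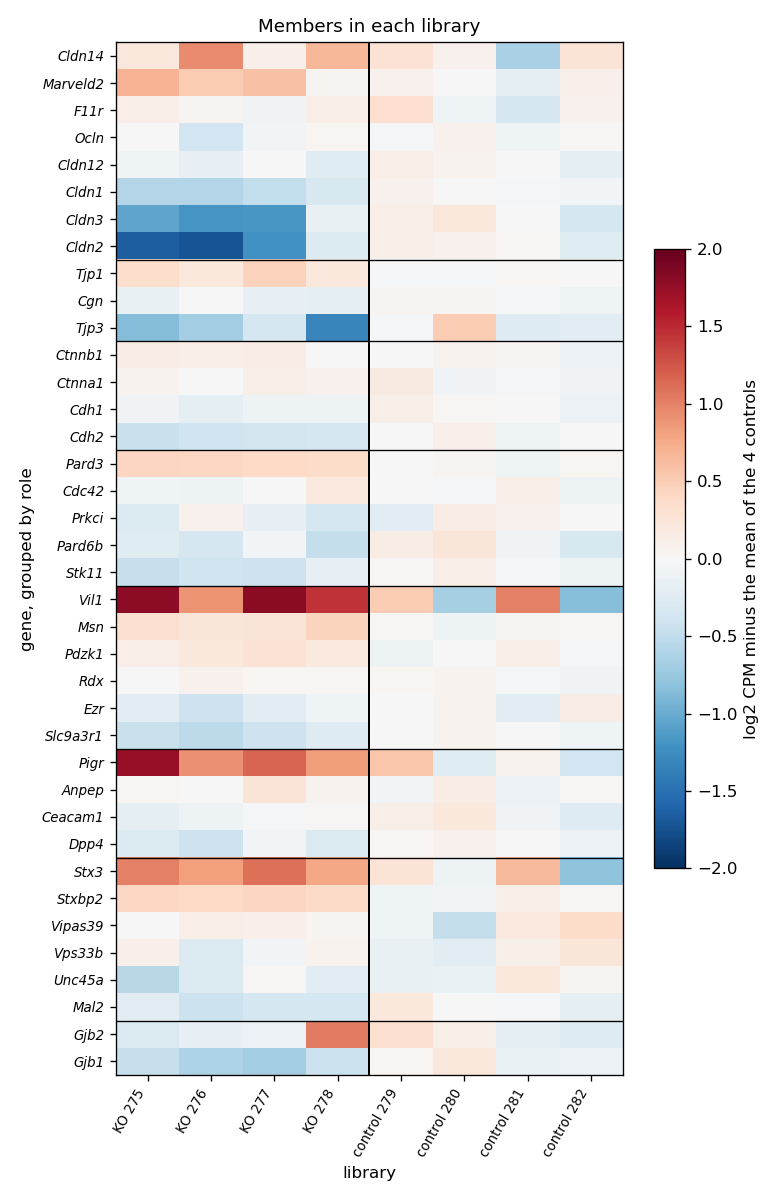
Heat map of log2 CPM minus the mean of the 4 controls for each gene (rows, grouped by role) in each library (columns, 4 knockouts left of 4 controls). Cldn2 and Cldn3 are dark blue in knockouts 275, 276 and 277, Tjp3 is darkest in knockout 278, Gjb2 is red in knockout 278 alone among knockouts, and Pigr, Vil1 and Stx3 are red across the knockouts.

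Among the genes of microvillus linkers and scaffolds, those of moesin and NHERF1 moved apart. Msn, the gene of moesin, which in liver is mainly a protein of sinusoidal and blood cells, had 230, 218, 221 and 251 CPM in knockout livers, against 187, 173, 192 and 188 CPM in control livers. It rose 1.24-fold with no overlap (log2 fold change 0.32, SE 0.08, adjusted p = 0.00814 in edgeR's test). In the same livers summed endothelial markers were 1113 to 1324 CPM in knockouts and 874 to 958 CPM in controls, and summed macrophage markers 1377 to 1615 CPM in knockouts and 772 to 877 CPM in controls. Their part in the Msn value was not tested. Rdx, the gene of radixin, the main such linker of the canaliculus, was at 0.03 (SE 0.08), with 345, 370, 358 and 352 CPM in knockout livers and 357, 363, 340 and 332 CPM in control livers. Ezr, the gene of ezrin, which in liver marks bile duct cells, was at -0.24 (SE 0.10, adjusted p = 0.0965), and passed without knockout 278 (-0.29) or control 281 (-0.31). The log2 ratio of Msn to Ezr was 1.66 to 1.83 in knockout livers and 1.02 to 1.45 in controls, again a ratio chosen after the values were seen.

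Slc9a3r1, which encodes the PDZ scaffold NHERF1 that binds those linkers and canalicular transporters, had 152, 145, 156 and 175 CPM in knockout livers, against 210, 219, 208 and 196 CPM in control livers. It fell 1.33-fold (log2 fold change -0.41, SE 0.08, adjusted p = 0.00162 in edgeR's test), and the groups did not overlap. Pdzk1, the gene of a related scaffold, had 72.9, 77.0, 82.1 and 76.8 CPM in knockout livers, against 62.1, 66.7, 72.8 and 66.1 CPM in control livers. The lowest knockout stood only just above the highest control, and the difference did not pass (0.21, SE 0.08, adjusted p = 0.0968), though it did with library size as the only scaling (0.27). Of the Pdzk1 exon bases, 37.5% overlap Gpr89 on the other strand, so its counts are uncertain. Vil1, the gene of villin, which bundles microvillar actin, had 4.58, 2.43, 4.63 and 3.58 CPM in knockout livers, against 1.82, 0.737, 2.61 and 0.631 CPM in control livers. Knockout 276 fell within the control range. Vil1 rose 2.60-fold (log2 fold change 1.38, SE 0.42, adjusted p = 0.0254), on 38 to 88 reads per knockout library and 9 to 44 per control library. It lost its call without knockout 275 (1.28) or 277 (1.26) or control 280 (1.16) or 282 (1.13), and without knockout 278 and control 282 together (1.16). Of 9 cholangiocyte markers, 8 were tested, 0 were higher and Prom1 was lower (log2 fold change -1.09, SE 0.21), while 5 of the 8 had a log2 fold change above 0 and their median was 0.25. Cldn4 was too low to be tested and at 0 in some control libraries. The summed level was 91.0 to 121 CPM in knockout livers and 126 to 148 CPM in controls, and without Prom1 it was 70.1 to 82.3 CPM in knockout livers and 69.1 to 81.0 CPM in controls, a split made after the values were seen.

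Of 4 genes for proteins carried to the canalicular surface, 1 rose. Pigr encodes the polymeric immunoglobulin receptor, which rodent hepatocytes move across the cell to release IgA into bile (chromosome 1, 130826684 to 130852249). It had 53.0, 29.7, 35.4 and 28.3 CPM in knockout livers, against 23.1, 13.2, 16.6 and 12.1 CPM in control livers. All knockouts were above all controls, and knockout 275 was highest. The rise was 2.25-fold (log2 fold change 1.17, SE 0.25, adjusted p = 0.00967 in edgeR's test). With the erythroid covariate the value was 0.32 (adjusted p = 0.965). Dpp4, the gene of a canalicular peptidase, had 92.1, 83.4, 107 and 91.1 CPM in knockout livers, against 114, 119, 110.4 and 102 CPM in control livers. It missed the threshold (-0.26, SE 0.09, adjusted p = 0.0519) and passed without knockout 277 (-0.33) or control 282 (-0.30) and where genes needed 1 CPM in 4 or more libraries to be tested (-0.25). Anpep, the gene of aminopeptidase N, was at 0.10 (SE 0.09), and Ceacam1, the gene of an adhesion protein of the canaliculus, at -0.09 (SE 0.10). Ceacam1 has a close relative, Ceacam2, so its counts are uncertain.

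The apical trafficking genes held the partners closest to myosin Vb in human disease. Stx3 encodes syntaxin 3, the SNARE on which vesicles fuse at the apical membrane (chromosome 19, 11775118 to 11819403). It had 11.2, 9.84, 11.9 and 9.47 CPM in knockout livers, against 6.69, 5.10, 8.67 and 3.09 CPM in control livers. The groups did not overlap, and Stx3 rose 1.79-fold (log2 fold change 0.84, SE 0.25, adjusted p = 0.0222 in edgeR's test), a call lost without knockout 275 (0.82) or 277 (0.78) or control 280 (0.78). Stxbp2, which encodes Munc18-2, the protein that binds syntaxin 3 and steers its fusion, had 42.7, 42.5, 43.2 and 42.0 CPM in knockout livers, against 30.1, 31.0, 34.7 and 32.7 CPM in control livers. It had the smallest coefficient of variation of the set in knockouts, at 1.16%, and rose 1.32-fold (log2 fold change 0.41, SE 0.10, adjusted p = 0.00574). Macrophage and endothelial markers were higher in the same knockout livers, and their part in the Stx3 and Stxbp2 values was not tested.

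Mal2, whose product is needed for transcytosis from the basolateral to the apical surface, went down. It had 35.7, 30.6, 32.3 and 32.3 CPM in knockout livers, against 48.1, 41.1, 40.9 and 36.5 CPM in control livers. The highest knockout was just below the lowest control, and Mal2 fell 1.27-fold (log2 fold change -0.35, SE 0.11, adjusted p = 0.0291 in edgeR's test). That call was lost without knockout 276 (-0.32) or 277 (-0.35) or control 279 (-0.27), 280 (-0.36) or 281 (-0.36), with library size alone (-0.28) and with the sex of each pup as a covariate (-0.32). Vps33b and Vipas39, whose products form a complex that is lost in a human syndrome with cholestasis, were at -0.05 (SE 0.15) and 0.04 (SE 0.18). Unc45a, the gene of a myosin chaperone that lies near Vps33b on chromosome 7 (80325292 to 80341005, with Vps33b at 80269649 to 80291754), was at -0.25 (SE 0.13, adjusted p = 0.205).

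Gjb1 encodes connexin 32, the main gap junction protein of hepatocytes (chromosome X, 101376378 to 101385629). It had 127, 115, 109 and 130 CPM in knockout livers, against 180, 205, 160.5 and 161 CPM in control livers. Every knockout was below every control, a 1.47-fold fall (log2 fold change -0.55, SE 0.09, adjusted p = 0.000449 in edgeR's test), and the direction held in knockout 278, where Gjb2 was high. Gjb1, Msn and Cldn2 lie on the X chromosome. By the level of the Y-linked gene Ddx3y, 1 of the 4 knockout pups and 2 of the 4 control pups were male. With sex as a covariate, 14 of the 15 calls held, Mal2 being the exception.

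**Figure D5:**
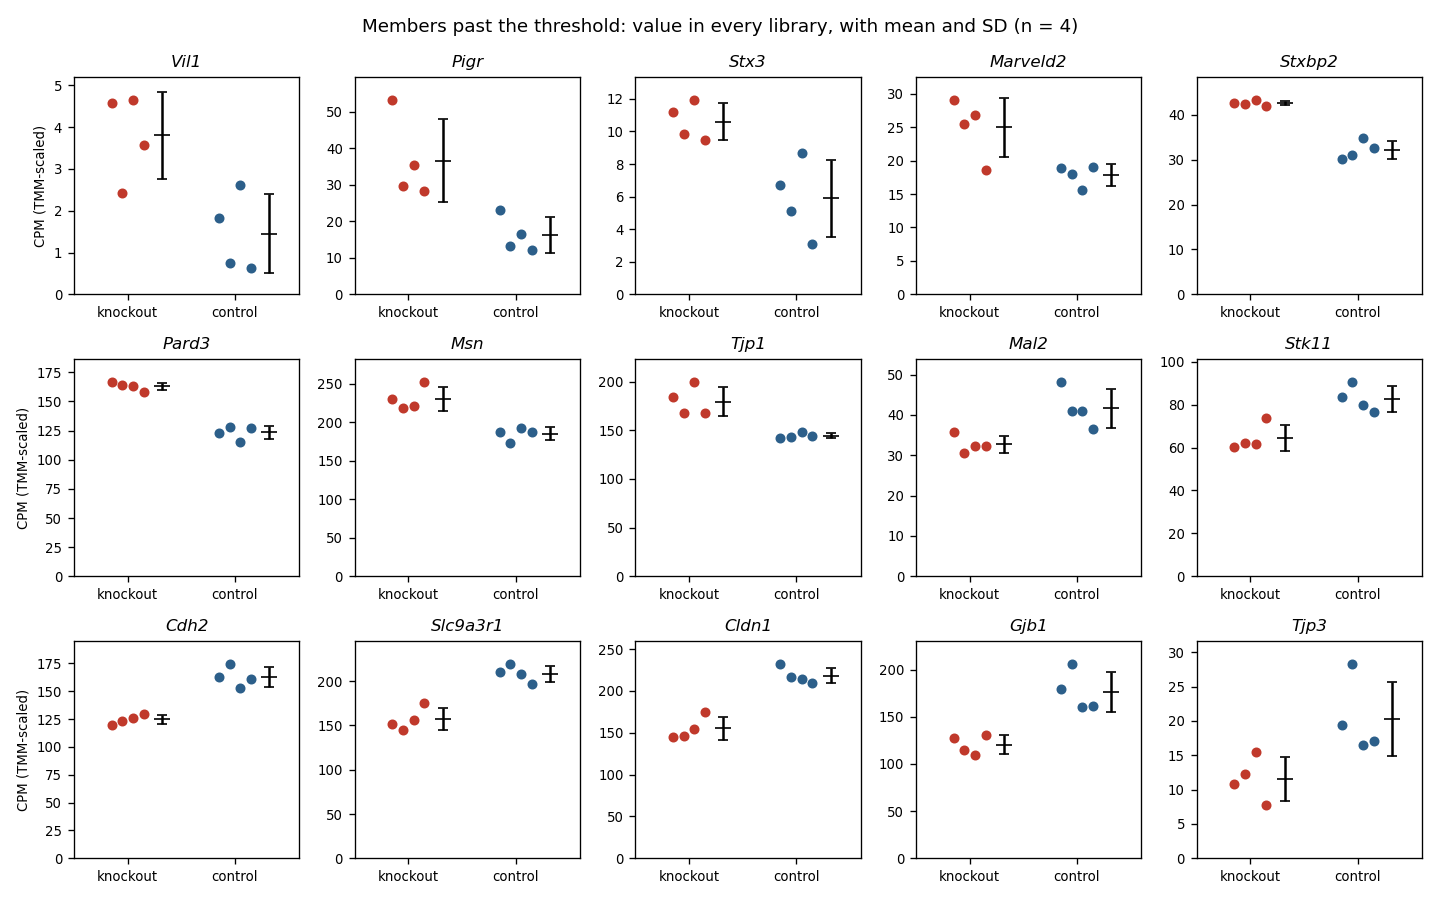
CPM in every library for the 15 genes past the threshold (1 point per liver, knockouts in red left of controls in blue), with the mean and SD of 4 livers in black beside them and the y axis starting at 0. The groups stand apart in 13 panels and overlap for Vil1 and Marveld2.

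Of the 23 genes that did not pass, 13 had a log2 fold change within 0.15 of 0, with SE of 0.08 to 0.18. Among these were the genes of occludin, JAM-A, cingulin, E-cadherin, both catenins, radixin and aminopeptidase N. A p above the threshold does not show that their levels were equal.

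A further list of 48 junction and polarity genes, of which 47 were in the table and 43 tested, gave 6 higher and 2 lower in knockout livers. That is 18.6%, beside 20.7% of all genes tested and 27.6% of tested genes with a mean of at least 5 CPM. The median log2 fold change of the list was 0.06. Those that rose were Igsf5, a junctional adhesion molecule gene (0.72, SE 0.11), Jam2, the gene of JAM-B, found in endothelium (0.98, SE 0.17), Marveld3, a tight junction gene related to Ocln (1.68, SE 0.31), Ctnnd1, the gene of p120-catenin (0.50, SE 0.13), the connexin 43 gene Gja1 (0.56, SE 0.16) and the SNARE gene Stx4a (0.35, SE 0.11). Marveld3 had 3.58 to 8.82 CPM in knockout livers and 1.54 to 2.86 CPM in control livers. Those that fell were Stradb, which encodes a pseudokinase partner of LKB1 (-0.74, SE 0.12), and Nectin1, an adhesion gene of adherens junctions (-0.48, SE 0.10). Stradb had 14.7 to 18.2 CPM in knockout livers and 25.9 to 30.0 CPM in control livers. The adjusted p of these 8 genes ran from 0.000256 to 0.0313 in edgeR's test.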

How the data were processed

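The authors deposited a table of raw read counts, with 1 whole number per Ensembl gene and library. Reads were aligned with Rsubread 2.20.0 under R 4.4.1, per the labels' protocols, and featureCounts is named in the submitters' processing notes. The genome is spelled GRMm38 in the protocols and was taken to be GRCm38. Which annotation was counted, whether strand was used and how multi-mapping reads were handled were not stated.

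GENCODE M21 supplied symbols, positions and exon lengths for 48058 of 48440 genes. Low counts were removed by filterByExpr (minimum count 10, minimum total 15). TMM-scaled counts went into edgeR 4.0.16 (R 4.3.3), where knockout and control livers were compared by a robust quasi-likelihood F-test. P-values were adjusted by Benjamini-Hochberg over all 18274 genes, with calls made under 0.05. Dividing the size of a log2 fold change by the root of F gave its SE. Log2 CPM had a prior count of 2. The code was tested on simulated data. Every library came from its own pup, and same-group libraries all differed beyond sampling noise (chi-square per degree of freedom 11.85 to 21.84).

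Alternatives were median-ratio, upper-quartile and library-size scaling, other low-count filters, a dispersion fit without robustness, DESeq2 1.42.0, limma-voom with quality weights (limma 3.58.1), mean erythroid marker expression as a covariate, and omitted libraries. Sex as a covariate (male above 10 CPM of Ddx3y) was added after the data were seen. The 38 genes, the further list, the markers and which libraries to omit together (knockout 278 with control 282) were chosen with earlier results of these data known. All 38 genes, Myo5b, the 8 called genes of the further list with the smallest p and at most 3 markers per list, by level, were named. 1 cholangiocyte marker is not reported here. Figures were drawn with matplotlib 3.10.9.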

Additional observations from a re-analysis of the deposited data

Results flagged for a closer look

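Single libraries stood far from the rest of their group, by the gap to the nearest library over the group's range, in 5 of 78 groups examined, and chance alone flags about 1 in 20 groups. Of these, 4 were knockout 278. Gjb2 was 255 CPM there, against 102 to 114 CPM in the other knockouts, and Cldn3 was 90.4 CPM, against 43.8 to 48.1 CPM. Stk11 was 73.7 CPM, against 60.04 to 62.2 CPM, and Ctnnb1 was low at 208 CPM, against 232 to 233 CPM. The remaining one was Ctnna1 in control 279, at 209 CPM against 175 to 180 CPM in the other controls. Cldn2 in knockout 278 (85.3 CPM) did not reach that limit because knockout 277 (44.3 CPM) lay between it and the others.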

How the results depend on the processing

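No pairing or blocking by litter was possible, because the replicate numbers are those of single pups and the litter of each pup is not given. The counts of 8 higher and 7 lower genes of the set held within 1.5 times under every alternative except the erythroid covariate, which left 0 and 0, and the omission of single libraries, which gave 5 to 8 higher and 6 to 10 lower. The lowest of those higher counts, 5, came without knockout 275, knockout 277 or control 280, and the highest lower count, 10, without knockout 278. With the erythroid covariate the further junction list also went to 0 higher and 0 lower (4 at an unadjusted p under 0.05), all genes to 23 higher and 18 lower, and Myo5b to -1.003 (SE 0.55, adjusted p = 0.710). The directions that turned with that covariate were those of Marveld2 (-0.32), Cldn2 (0.46), Cldn3 (0.36), Ctnnb1 (-0.23), Ezr (0.034), Rdx (-0.0023), Anpep (-0.10) and Vps33b (0.15); the cause was not tested. Elsewhere the genes that turned were Gjb2 and 4 genes near 0. Leaving out libraries, F11r ran from -0.058 (without control 281) to 0.16, Vps33b from -0.12 to 0.033 (positive without knockout 276, 0.020, or control 282), Vipas39 from -0.098 (without control 280) to 0.18, and Gjb2 from -0.29 to 0.35 (negative without knockout 278, -0.21, and without it and control 282). Cdc42 ran from -0.10 (without knockout 278 and control 282) to 0.047, and was negative without knockout 277 (-0.0010) or 278 (-0.067) or control 280 (-0.0074) or 282 (-0.035). Cdc42 was -0.018 in limma-voom, and Vps33b was 0.015 with library size alone. Library size alone put 57.6% of all calls higher, against 44.8% with TMM, and moved the median of all genes by 0.07. Median-ratio and upper-quartile scaling and the absence of a low-count filter gave the same 15 calls. Levels of a few CPM, as for Vil1, rest on 9 to 88 reads per library.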
